A study of Mus musculus with 14 samples.

Results

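Complement components were examined in a white fat depot, the epididymal fat of mice 3 weeks old. The genes were taken from a list of 8 complement genes (Cfd, C3, C1qa, C1qb, C1qc, C4b, C2 and Cfb), and every probe set annotated to one of them was used, 8 probe sets of 22690 in all. C1qa, C1qb, C1qc, C2 and Cfb had 7 probe sets of their own, of which C1qb had 3. C4b was represented by a single probe set that is annotated to both C4a and C4b, near-identical copies whose signals cannot be told apart on it. Cfd, which encodes adipsin, and C3 were not analysed here, because the probe annotation used here carries neither symbol. The values below therefore say nothing of adipsin or of C3.

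Complement is a cascade of plasma proteins that marks targets for uptake and lysis. The C1q chains bind immune complexes and dying cells and start the classical pathway, in which C4 and C2 are cleaved and join to form the enzyme that cleaves C3. Factor B, the product of Cfb, has the matching role in the alternative pathway, where adipsin, a protease secreted by adipocytes, cleaves it. In tissues the C1q chains are made mainly by macrophages and related myeloid cells.

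RNA was measured on single-channel Affymetrix arrays in 14 ICR mice labelled male, with 1 array a mouse. UC mice (n = 5) were exposed in utero to a 50% restriction of the food of the dam and were suckled with ad libitum feeding. UU mice (n = 4) had the 50% restriction both in utero and during suckling. CC mice (n = 5) had ad libitum feeding in both periods. UC and UU thus share the restriction in utero and differ in suckling. The labels name no litters or dams, and every p-value below takes the arrays of a group as separate, independent mice. The deposited signals are linear intensities scaled to one trimmed mean on every array, between 1500.45 and 1500.57. Differences are given on the scale log2(signal + 32), fitted with limma over 7436 genes that passed a filter on dim genes, and a gene was called at a Benjamini-Hochberg adjusted p under 0.05. All 5 genes with probe sets of their own and all 8 probe sets passed the filter.

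Some arrays stood apart before any comparison. Gpx5, an epididymal glutathione peroxidase, was at 857 and 1155 in UC replicates 2 and 5 and at 409.6 and 828 in CC replicates 2 and 4, and at 5711 to 69624 in the other 10 arrays, all 4 UU arrays among them. UC replicate 5 and CC replicate 2, labelled male, had Eif2s3y signals, from a Y-linked gene, of 7.9 and 58.6, against 1235 to 2234 in the other 12 arrays. Their Xist signals were 9136.8 and 14479.3, against 10 to 80.1 in the other 12. UC replicate 2 had an albumin (Alb) signal of 25660.3, against 550.4 to 3190.5 elsewhere. Ttr, the brightest liver marker, was at 6490.8, 32323 and 5663.1 in UC replicates 1, 2 and 4, against 38 to 1228.3 elsewhere. The log2 ratio of 3' over 5' signal of Gapdh and Actb was highest in UU replicate 3 (2.11) and in UC replicates 1 and 4 (1.63 and 1.60). Fabp4, a defining adipocyte transcript, lay between 76828.6 and 185120.5 in all 14 arrays.

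No complement gene or probe set passed the test in any comparison. In UU against CC all 5 genes had lower values, as did 44.7% of all tested genes, and so did the probe set of C4a and C4b. There C1qa, C1qc, C2, Cfb and the C4 probe set differed by more than 1 on the log2 scale. In UC against UU all 5 genes and the C4 probe set had higher values, where 56.7% of all tested genes had lower ones. In UC against CC they differed by at most 0.37 in either direction. The arrays of UU lay below all arrays of CC for C1qc, C2, Cfb and the C4 probe set. The same held for 3.63% of all tested genes and 3.6% of all probe sets tested singly.

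The chains of C1q are encoded side by side. C1qb, C1qc and C1qa follow each other on chromosome 4 with no other protein-coding gene between them, and all were measured on these arrays. Their start regions are shown because the chains are neighbours. Over the 14 arrays the C1qc signal correlated with C1qa at r = 0.87 and with the brightest C1qb probe set at 0.73, and C1qa with that probe set at 0.51. C1qc correlated with Cfb at 0.81 and with C2 at 0.80, which is as high as with that C1qb probe set or higher. RefSeq promoter windows (250 bases before to 50 after the start, build GRCm38.p6) were held for 2 of the 6 genes looked up, C1qb at chr4:136886151-136886450 and C1qc at chr4:136892865-136893164, both on the minus strand. Capitals mark matches, on either strand, to GAGGAA, the core bound by the myeloid factor Spi1, and to TGCTGA, a core bound by Maf factors.
C1qb: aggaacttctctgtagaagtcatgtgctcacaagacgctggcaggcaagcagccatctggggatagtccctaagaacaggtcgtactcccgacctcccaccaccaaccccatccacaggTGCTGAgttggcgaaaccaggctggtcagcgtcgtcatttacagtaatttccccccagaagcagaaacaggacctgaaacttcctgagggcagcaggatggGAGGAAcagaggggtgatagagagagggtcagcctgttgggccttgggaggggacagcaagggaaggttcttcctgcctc
C1qc: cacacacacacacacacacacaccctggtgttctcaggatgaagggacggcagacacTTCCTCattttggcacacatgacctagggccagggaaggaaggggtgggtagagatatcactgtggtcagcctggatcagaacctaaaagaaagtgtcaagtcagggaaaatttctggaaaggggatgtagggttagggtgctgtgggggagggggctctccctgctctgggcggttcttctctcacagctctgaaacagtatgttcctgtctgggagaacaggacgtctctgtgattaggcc

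GAGGAA occurred 1 time in each window, with its first base at -30 from the start in C1qb and, on the opposite strand, at -193 in C1qc. TGCTGA occurred 1 time, at -131 in C1qb, and was not found in the C1qc window. A pair of GAAA cores set apart by 2 free bases, as bound by interferon regulatory factors, was not found in either. Of 32851 promoter windows of the same length, 28.3% held GAGGAA, 19.5% held TGCTGA and 3.44% held the pair of GAAA cores. The first motif is therefore common among promoters, and none of the searched motifs overlapped another in these windows.

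C1qa, the A chain, had signals of 1753.5, 2341.4, 1731.6, 2844.9 and 5884.1 in UC, of 1234.8, 1937.6, 720.3 and 1512.9 in UU, and of 4035.2, 3998.7, 1287.1, 5619.3 and 2632.2 in CC. UC replicate 5 was the highest array and UU held the 2 lowest. UU and CC overlapped because CC replicate 3 lay among the UU arrays. UC and UU overlapped because UC replicates 1 and 3 lay below UU replicate 2. The means were 2911 ± 1725 in UC, 1351 ± 510 in UU and 3515 ± 1634 in CC (SD). The log2 difference was -1.29 ± 0.42 (SE) for UU against CC (limma adjusted p = 0.174) and 1.01 ± 0.42 for UC against UU (limma adjusted p = 0.225). For UC against CC it was -0.27 ± 0.40 (limma adjusted p = 0.869).

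C1qc, the C chain, had signals of 2577.3, 2215.6, 1570.2, 2602.7 and 6705.3 in UC, of 643.2, 2028.9, 1050.4 and 1701.1 in UU, and of 3003.3, 4314.2, 2066.9, 4200.3 and 2150.1 in CC. All 4 UU arrays lay below all 5 CC arrays, by a margin of 2028.9 to 2066.9. Of all tested genes, 3.63% had every UU array below every CC array. UC replicate 5 was again the highest array, and UC replicate 3 lay below UU replicates 2 and 4. The log2 difference was -1.25 ± 0.39 for UU against CC (limma adjusted p = 0.165), 1.13 ± 0.39 for UC against UU (limma adjusted p = 0.169) and -0.12 ± 0.37 for UC against CC (limma adjusted p = 0.946). The last value was 0.0067 without CC replicate 2 and 0.076 without UC replicate 3, so that it has no settled direction.

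C1qb, the B chain, gave different values on its probe sets. The brightest of them had signals of 4380, 5940.8, 2906.9, 5434.8 and 7038.4 in UC, of 2322, 3202.9, 3588.7 and 3212.4 in UU, and of 3157.8, 4771, 4285, 4785.8 and 2747.5 in CC. Here 3 of 5 UC arrays were above the highest CC array, 1 of 4 UU arrays was below the lowest CC array, and UC and UU overlapped only through UC replicate 3. The log2 difference was 0.69 ± 0.25 for UC against UU (limma adjusted p = 0.175), -0.34 ± 0.25 for UU against CC (limma adjusted p = 0.491) and 0.35 ± 0.23 for UC against CC (limma adjusted p = 0.668). C1qb was thus the 1 gene of the 5 whose UC mean lay above that of CC.

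The second C1qb probe set, the next in brightness, was at 3107.3 to 6312 in UC, 2189.9 to 3771.8 in UU and 3025.3 to 4700.7 in CC, and every pair of groups overlapped. It gave 0.54 ± 0.22 for UC against UU, -0.23 ± 0.22 for UU against CC and 0.32 ± 0.21 for UC against CC. Its arrays correlated with those of the brightest at r = 0.93 (n = 14). The dimmest C1qb probe set had signals of 1204, 1458.6, 1290, 1461 and 2716.3 in UC, of 1167.8, 1266.3, 331.9 and 1237.3 in UU, and of 1998, 2305.3, 1084.6, 2794.1 and 1461.9 in CC, and all groups overlapped on it. It gave 0.78 ± 0.37 for UC against UU (limma adjusted p = 0.311 over 13575 probe sets), -1.02 ± 0.37 for UU against CC (limma adjusted p = 0.213) and -0.23 ± 0.35 for UC against CC. It correlated with C1qa at r = 0.93 and with the brighter C1qb probe sets at 0.38 and 0.39. Its lowest value, in UU replicate 3, is that of the array with the highest 3'/5' ratio, and that array was the highest of UU on the brightest probe set. Without UU replicate 3 the log2 difference of the dimmest probe set was -0.57 for UU against CC and 0.34 for UC against UU, so that this array decides much of both values. The direction of C1qb in UC against CC depends on the probe set.

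C4 and C2 act after C1q. The probe set of C4a and C4b had signals of 3098.8, 7307.4, 1446.5, 6460.6 and 4545.3 in UC, of 1858.1, 1768.9, 1761 and 2943 in UU, and of 3413.1, 6879.8, 5833.1, 5818.8 and 2967 in CC. The UU arrays all lay below the CC arrays, but UU replicate 4 at 2943 and CC replicate 5 at 2967 nearly met, and UC replicate 3 was the lowest of all 14 arrays. In the fit over probe sets, where 3.6% of probe sets had every UU array below every CC array, the log2 difference was -1.21 ± 0.39 for UU against CC (limma adjusted p = 0.176) and 0.95 ± 0.39 for UC against UU (limma adjusted p = 0.256). For UC against CC it was -0.26 ± 0.37 and turned to 0.10 without UC replicate 3.

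C2, the protease that joins C4 in the classical convertase, had signals of 3030.5, 4357.4, 1665, 2987.2 and 3317.9 in UC, of 1061.1, 2333.5, 1741.1 and 1326.2 in UU, and of 3617.1, 3673.2, 2814.2, 4033.9 and 2955.2 in CC. UU and CC did not overlap, with 2333.5 as the highest UU array and 2814.2 as the lowest CC array, the widest margin among the complement probe sets. UC replicate 3 was the 1 UC array within the range of UU. The means were 3072 ± 962 in UC, 1615 ± 554 in UU and 3419 ± 515 in CC. The log2 difference for UU against CC was -1.11 ± 0.26 (2.16-fold lower in UU, limma adjusted p = 0.104), which ranked C2 at 36 of 7436 genes by p. For UC against UU it was 0.91 ± 0.26 (1.88-fold higher in UC, limma adjusted p = 0.103), and for UC against CC -0.20 ± 0.24 (limma adjusted p = 0.823), or -0.0019 without UC replicate 3. Without UC replicate 3 the difference between UC and UU was 1.11 and passed the test (limma adjusted p = 0.0373).

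Cfb, whose product factor B carries the protease of the alternative convertase, had signals of 1050, 1521, 768.9, 1601.2 and 1994.2 in UC, of 509.7, 688.3, 984.6 and 1214.1 in UU, and of 1477.3, 3433.1, 1303.2, 1759.8 and 1253.9 in CC. The UU arrays all lay below the CC arrays, by 1214.1 against 1253.9 at the closest, and 2 of 5 UC arrays were below the lowest CC array. The log2 difference was -1.06 ± 0.33 for UU against CC (limma adjusted p = 0.165), 0.69 ± 0.33 for UC against UU (limma adjusted p = 0.288) and -0.37 ± 0.31 for UC against CC (limma adjusted p = 0.746). CC replicate 2, at 3433.1, was the highest array, and without the 2 arrays of low Eif2s3y the difference of UU against CC was -0.81. Without CC replicate 2 the difference of UC against CC was -0.12. Cfb and C2 are neighbouring genes on chromosome 17, with C4b nearby, and C2 and Cfb signals correlated at r = 0.73 (n = 14).

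**Figure D1:**
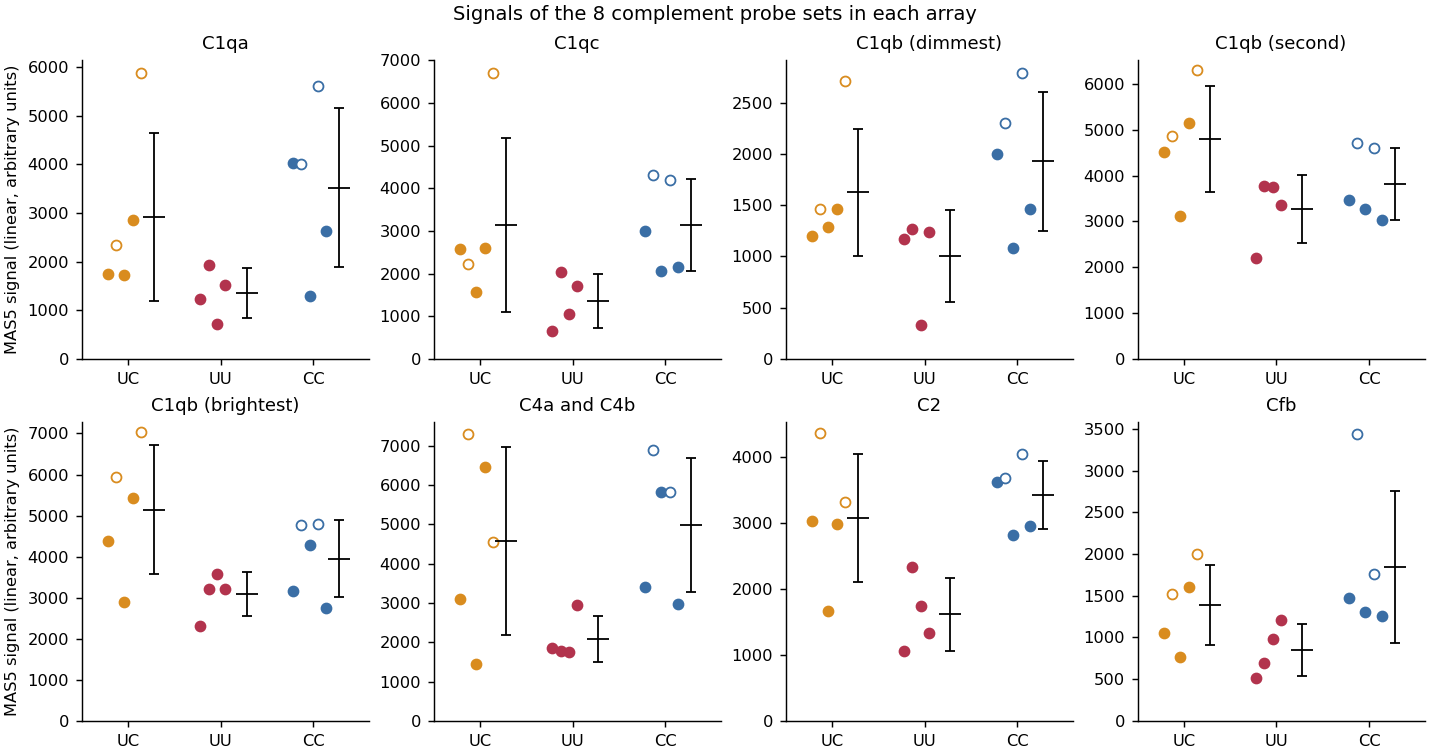
Signal (linear intensity, linear axis from 0) of each complement probe set in every array of UC, UU and CC, with the black bar at the mean ± SD and open circles for the 4 arrays low in epididymal markers (UC replicates 2 and 5, CC replicates 2 and 4). For C1qc, C2, Cfb and the C4a and C4b probe set the 4 UU arrays lie below the 5 CC arrays, while UC overlaps both.

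Counted over the group, 0 of 5 genes were called in UC against CC, where 0% of all tested genes were called. In UU against CC 0 of 5 were called, against 0% of all genes. In UC against UU 0 of 5 were called, against 0.847% of all genes, or 63 genes. Of the 8 probe sets tested singly 0 were called in any of the comparisons, against 0%, 0% and 0.442% of all probe sets for UC against CC, then UU against CC, then UC against UU. At an unadjusted limma p under 0.05, 0 of 5 passed in UC against CC (4.8% of all genes higher and 3.99% lower), 4 of 5 were lower in UU against CC (7.75% of all genes) and 4 of 5 were higher in UC against UU (9.24% of all genes). The exceptions were C1qb in UU against CC and Cfb in UC against UU. The count in UC against UU rested on few arrays: it was 1 of 5 without UU replicate 1, 2 without the 4 arrays low in epididymal markers and 2 without the 3 arrays of highest 3'/5' ratio. In UU against CC it stayed at 4 with any single array or any of these sets left out. The median log2 difference of the 5 genes was -0.20 for UC against CC, where that of all tested genes was -0.0043. It ran there from -0.44 without UC replicate 5 to -0.0019 without UC replicate 3, and C1qa ran from -0.59 without CC replicate 3 to -0.064 without CC replicate 4. The median was -1.11 in UU against CC (0.05 over all genes) and 0.91 in UC against UU (-0.06 over all genes). UU against CC shares its arrays with both other comparisons, so these are not independent readings. C1qc, C2 and Cfb, 3 of the 5 genes, had every UU array below every CC array (3.63% of all genes). None of the 5 had every UC array above every UU array (3.54% of all genes) or outside the range of CC.

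**Figure D2:**
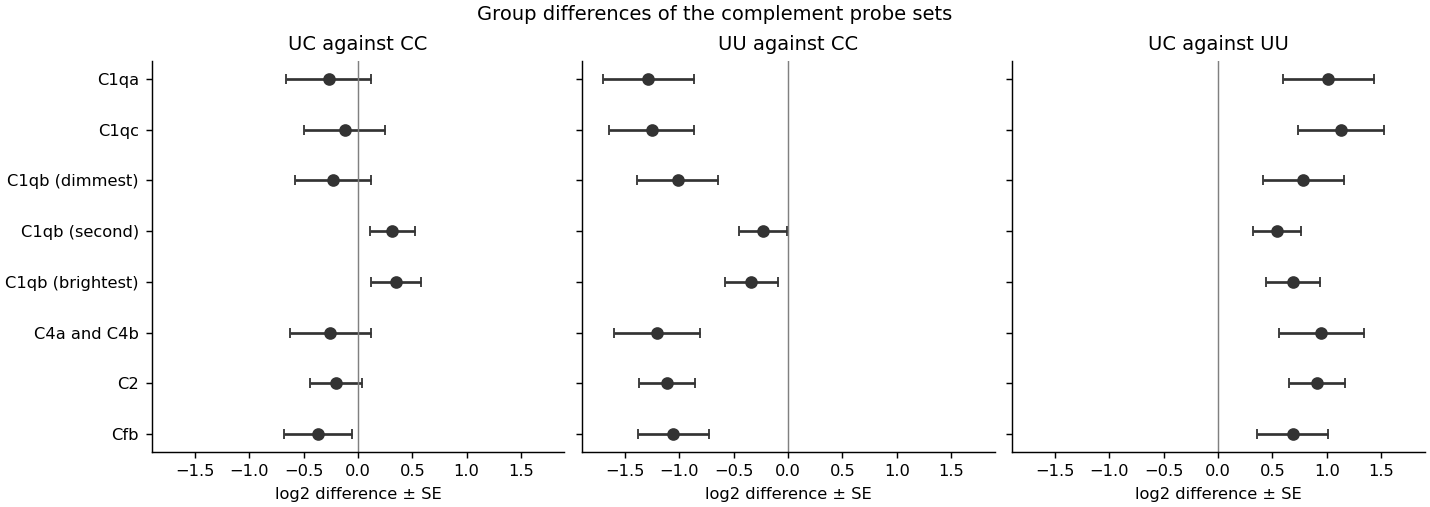
Log2 difference ± SE from limma for each complement probe set in UC against CC, UU against CC and UC against UU. All 8 points lie below 0 in the second panel and above 0 in the third, and no probe set passed the adjusted test.

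The spread within groups was wide. C1qc signals differed 10.4-fold between the lowest and highest of the 14 arrays and C1qa 8.17-fold, against 3.03-fold for C1qb on its brightest probe set. Within UC, the standard deviation was 65.1% of the mean for C1qc and 59.2% for C1qa, in both cases with UC replicate 5 far above the rest. The lowest such share was 15.1%, for C2 in CC.

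Leaving out the arrays that stood apart moved the sizes and not the directions of the comparisons with UU. The 4 arrays low in epididymal markers lay toward the high end for the complement genes, with C1qb at 4771 to 7038 there and 2322 to 5435 in the other 10, and C2 at 3318 to 4357 there and 1061 to 3617 in the others. Without these 4 arrays the log2 difference of UU against CC was -0.99 for C2, -0.71 for Cfb, -0.90 for C1qa, -0.92 for C1qc, -0.13 for C1qb and -0.93 for the C4 probe set. UC against UU became 0.66 for C2, 0.42 for Cfb, 0.68 for C1qa, 0.81 for C1qc, 0.43 for C1qb and 0.59 for the C4 probe set. Without the 2 arrays of low Eif2s3y, C2 gave -1.09 for UU against CC and 0.87 for UC against UU. Without UC replicate 2, the array with the high albumin signal, UC against UU was 0.77 for C2 and 0.73 for the C4 probe set.

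The level of macrophage transcripts varied with these genes. Over 21 measured macrophage markers the mean log2 signal was 10.81 ± 0.48 in UC, 10.28 ± 0.24 in UU and 10.98 ± 0.53 in CC (SD). The difference of UU against CC was -0.70 (exact permutation test, two-sided, p = 0.0397, adjusted p = 0.184 over 27 tests), and 16 of the 18 tested markers had a difference below 0. UC against UU differed by 0.53 (exact permutation p = 0.0952) and UC against CC by -0.17 (exact permutation p = 0.635). The summed macrophage marker signal ranged from 45303 to 110739 in UC, from 27094 to 49199 in UU and from 46856 to 140237 in CC, and no marker of the list was at 0. Csf1r, the receptor that maintains macrophages and the brightest of the list, was at 13561.9 to 38958.4 in UC, 5860.2 to 16208.5 in UU and 12596.7 to 35641.2 in CC. In these bulk samples, fewer cells of a type and less RNA per cell cannot be told apart.

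The mean level of adipocyte markers was also lowest in UU. Their mean log2 level over 17 genes was 13.58 ± 0.51 in UC, 12.71 ± 0.38 in UU and 13.52 ± 0.49 in CC. UU against CC differed by -0.81 and UC against UU by 0.86 (exact permutation test, p = 0.0476 and adjusted p = 0.184 for each). In UU against CC 16 of the 17 had a difference below 0 and 1 above. Lpl, the second brightest, was at 82053.3 to 122920.4 in UU and at 70177.5 to 109319.1 in CC. Fibroblast markers differed by -0.34 and endothelial markers by -0.53 in UU against CC (exact permutation test, p = 0.0159 and adjusted p = 0.161 for each). Markers of lymphocytes differed by -0.05 (exact permutation p = 0.786), with 1 of the 9 measured passing the filter. Liver markers, of a tissue that makes C2, C4 and factor B for plasma, were at 9.22 ± 1.27 in UC, 8.55 ± 0.27 in UU and 7.87 ± 0.31 in CC, and differed by 1.35 in UC against CC and by 0.68 in UU against CC (exact permutation test, p = 0.0238 and adjusted p = 0.161 for each). In UU against CC all 6 tested liver markers lay above 0, of 14 measured, the rest being below the filter. Epididymal markers were at 10.71 ± 2.88 in UC, 12.64 ± 0.85 in UU and 11.17 ± 3.26 in CC (exact permutation p = 0.437 for UU against CC). The part of these cell types in the complement values was not tested.

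**Figure D3:**
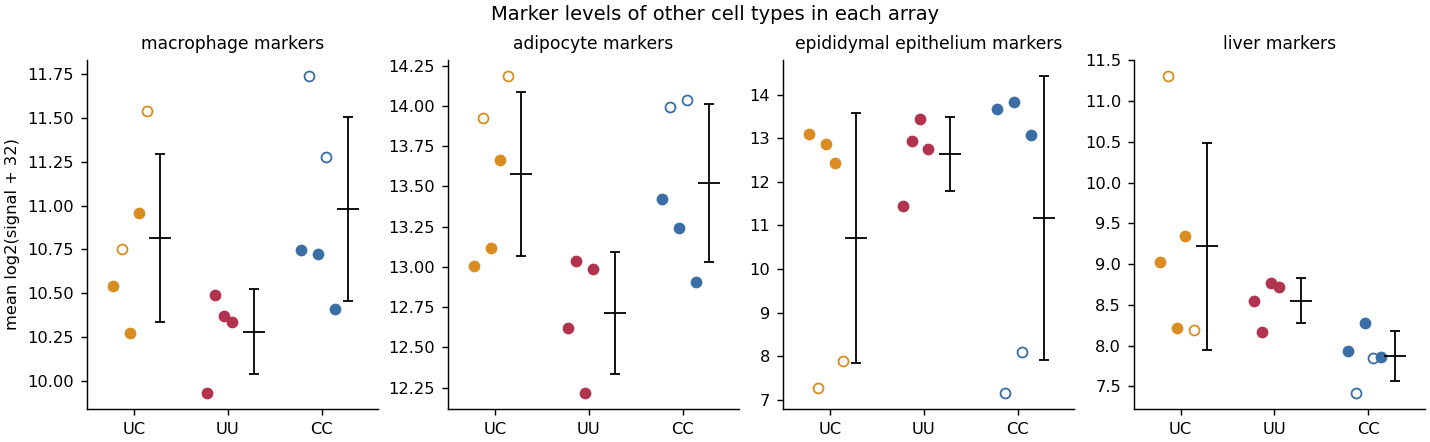
Mean log2(signal + 32) of macrophage, adipocyte, epididymal and liver markers in each array, with the bar at the mean ± SD and open circles for the 4 arrays low in epididymal markers (UC replicates 2 and 5, CC replicates 2 and 4). Macrophage and adipocyte levels of UU lie low, and the highest liver level, 11.31, is that of UC replicate 2.

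Across the 14 arrays each complement probe set was set against 4 marker levels, 32 relations in all. The arrays share the 3 diets, so that these are descriptions of covariation, and r computed on deviations from the group means is given with them. Cfb gave r = 0.91 with the macrophage level and rho = 0.93 (permutation test, adjusted p = 0.00032 for each), 0.86 within groups and 0.84 without the 2 arrays farthest from the median, UC replicate 5 and CC replicate 2. C1qc gave r = 0.90 and rho = 0.93 (permutation test, adjusted p = 0.00048 and 0.00032), 0.85 within groups and 0.88 without the same 2 arrays. The second C1qb probe set gave r = 0.80 and rho = 0.83 (permutation test, adjusted p = 0.0022 and 0.00228), 0.89 within groups and 0.78 without them. C1qa gave r = 0.78 and rho = 0.81 (permutation test, adjusted p = 0.00303 and 0.00253), 0.65 within groups and 0.72 without them. C2 gave r = 0.74 and rho = 0.87 (permutation test, adjusted p = 0.00492 and 0.00205), 0.56 within groups and 0.84 without them. All 8 probe sets passed adjustment with the macrophage level (r from 0.66 to 0.91) and all 8 with the adipocyte level (r from 0.73 to 0.87), so these correlations do not tell the cell types apart. With the fibroblast and with the endothelial level 6 of 8 passed, the exceptions being the brighter C1qb probe sets. Correlations with these levels were not computed over all tested genes. These counts therefore have no background share and are not read as particular to complement.

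**Figure D4:**
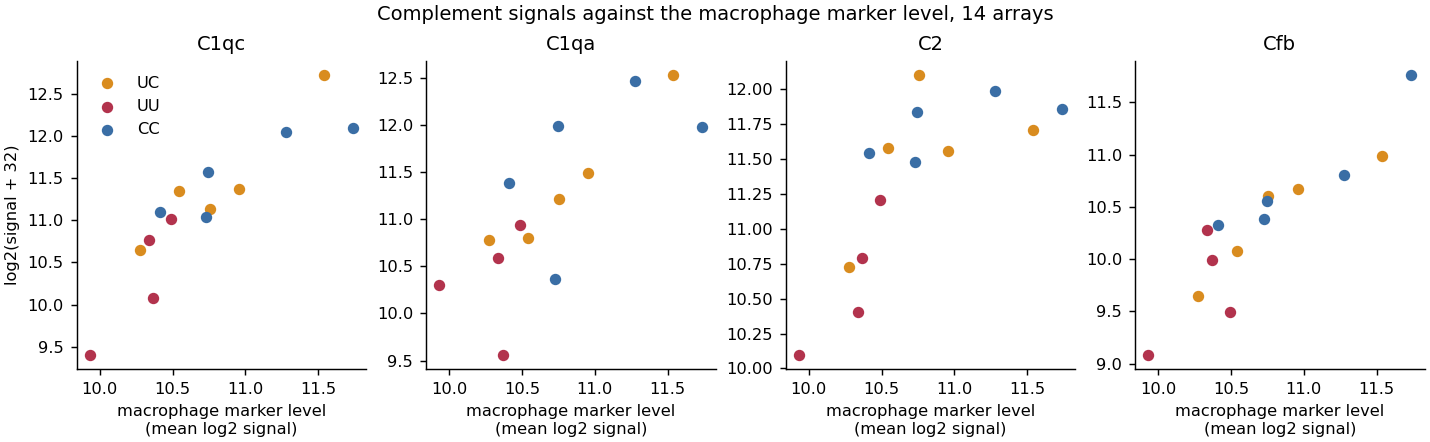
Log2(signal + 32) of C1qc, C1qa, C2 and Cfb against the mean log2 level of macrophage markers, 1 point an array, coloured by group. UU arrays lie toward the low end of both axes, and UC replicate 5 and CC replicate 2 at the high end of the marker level.

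The tested genes whose log2 signals ran most like each complement gene were ranked by Pearson's r over the 14 arrays among 7431 genes. For C1qc they were Cd68 (0.96), a lysosomal protein of macrophages, Cd209g (0.95) and Tyrobp (0.95), an adaptor of myeloid receptors. For Cfb they were Lyz1 (0.91) and Lyz2 (0.91), the lysozymes, and Ppp1r18 (0.91). For C1qa they were Fcna (0.92), a ficolin of the lectin pathway, Zeb2 (0.91) and Arhgdib (0.91). For C2 they were Sod3 (0.91), the extracellular superoxide dismutase, Ccdc80 (0.89) and Steap4 (0.89). C1qb on its brightest probe set ran with Cd1d1 (0.92), Dbi (0.92) and S100a10 (0.91), none of which is a nearest gene of another chain.

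Other genes of the pathway were taken from lists of further components, regulators and receptors. Of 20 further components 13 were measured and 4 tested, and none was called. In UU against CC 3 of the 4 had a difference below 0 (median -0.51), and in UC against UU all 4 were above 0 (median 0.28). Fcna had a signal of 1966 ± 681 in UC, 1245 ± 206 in UU and 2286 ± 577 in CC, with every UU array below every CC array (log2 difference -0.84 ± 0.23, limma adjusted p = 0.139). Such a lack of overlap held for 3.63% of all tested genes. C1ra, the C1r protease of the C1 complex, was at 1564 ± 518 in UC, 1186 ± 443 in UU and 2509 ± 1075 in CC, also without overlap of UU and CC (-1.05 ± 0.30, limma adjusted p = 0.146), and gave -0.64 ± 0.28 for UC against CC (limma adjusted p = 0.552). C1s1, its partner protease and the brightest of the list, gave -0.19 ± 0.40 for UU against CC. Masp1, a protease of the lectin pathway, gave 0.36 ± 0.22 in UC against CC and 0.19 ± 0.23 in UU against CC. Its 4 dimmer probe sets gave 0.25 to 0.89 in UC against CC, and in UU against CC -0.34, -0.014, -0.021 and 0.56, so that UU against CC has no settled direction for Masp1.

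Of 16 regulators 13 were measured and 10 tested, and none was called. The median was 0.06 for UC against CC (7 above and 3 below 0), -0.31 for UU against CC (3 above, 7 below) and 0.15 for UC against UU (5 above, 5 below). Cfp, properdin, which stabilises the alternative convertase, was at 864 ± 667 in UC, 228 ± 219 in UU and 777 ± 412 in CC. Its log2 difference was -1.85 ± 0.55 for UU against CC (limma adjusted p = 0.156) and 1.86 ± 0.55 for UC against UU (limma adjusted p = 0.115). Cfp was dim, and its UU signals, 75.4 to 546.5, overlapped those of UC (lowest 346.3) and CC (lowest 448.6). Serping1, the C1 inhibitor, was at 9280 ± 1185 in UU and 12620 ± 1520 in CC (-0.44 ± 0.14, limma adjusted p = 0.17). Thbd, thrombomodulin, was at 6015 ± 1695 in UC and 3231 ± 510 in UU, with every UC array above every UU array (0.85 ± 0.25, limma adjusted p = 0.118). Such a lack of overlap held for 3.54% of all tested genes. Cd59a, a membrane inhibitor of lysis, gave 0.65 ± 0.27 for UC against UU (limma adjusted p = 0.226), and Cfi, which degrades C3b and C4b, gave 0.21 ± 0.17 for UC against CC (limma adjusted p = 0.746).

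Clu, clusterin, an inhibitor of lysis that the epididymis also secretes, was at 39762 ± 34399 in UC, 77541 ± 23078 in UU and 36143 ± 28544 in CC (1.80 ± 0.97 for UU against CC, limma adjusted p = 0.362). It was at 3726 to 7003 in the 4 arrays low in epididymal markers and at 50497 to 108573 in the other 10. C4bp, the C4b-binding protein, split the arrays in the same way, at 18.1 to 314.8 in these 4 and 1901 to 9198 in the others.

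Of 12 receptors 11 were measured and 6 tested. The median was 0.07 in UC against CC (4 above and 2 below 0), -0.40 in UU against CC (1 above, 5 below) and 0.35 in UC against UU (5 above, 1 below). Cd93, a membrane protein of endothelial and myeloid cells first described as a C1q receptor, was called in UC against UU and no other tested gene of these complement lists was. Of all tested genes 0.847% were called in that comparison. Cd93 signals were 7895 ± 1416 in UC, 3311 ± 698 in UU and 6783 ± 1983 in CC. It was higher in UC than in UU by 1.25 ± 0.21 on the log2 scale (limma adjusted p = 0.0279) and gave -1.01 ± 0.21 for UU against CC (limma adjusted p = 0.104), with UU below both groups without overlap. Every UU array lay below every CC array for 3.63% of all tested genes, and every UC array above every UU array for 3.54%. With the replicate number as a block, UU against CC passed for Cd93 (-1.03, limma adjusted p = 0.0394). The call was lost without UC replicate 2, 4 or 5 or UU replicate 1, with limma adjusted p values of 0.0888, 0.0776, 0.0535 and 0.0956 and differences of 1.13 to 1.27. It was also lost without the 4 arrays low in epididymal markers (1.21, limma adjusted p = 0.0677), without the 3 arrays of highest 3'/5' ratio (1.14, limma adjusted p = 0.122) and with the mean of its probe sets (0.43, limma adjusted p = 0.298). The dimmer Cd93 probe set, with a mean signal of 388 against 6188 on the called one, gave -0.40. Lrp1, a receptor that takes up complement complexes, gave -0.42 ± 0.17 for UU against CC (limma adjusted p = 0.24). C1qbp, a C1q-binding protein found largely in mitochondria, went the other way in UU against CC, without overlap. Its signals were 15359 ± 3993 in UC, 14756 ± 3611 in UU and 10551 ± 1164 in CC. The log2 difference was 0.46 ± 0.21 for UU against CC (limma adjusted p = 0.288) and 0.51 ± 0.19 for UC against CC (limma adjusted p = 0.516). UC against UU gave 0.05 ± 0.21, and the means of UC and UU both lay above that of CC. The dimmer C1qbp probe set gave -0.23 for UU against CC and -0.12 for UC against CC. Itgb2, the shared chain of complement receptors of phagocytes, gave 0.81 ± 0.36 for UC against UU (limma adjusted p = 0.257), C3ar1, the receptor of C3a, 0.47 ± 0.31 (limma adjusted p = 0.439), and Calr, which binds the collagen tails of C1q, -0.09 ± 0.17 (limma adjusted p = 0.812).

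**Figure D5:**
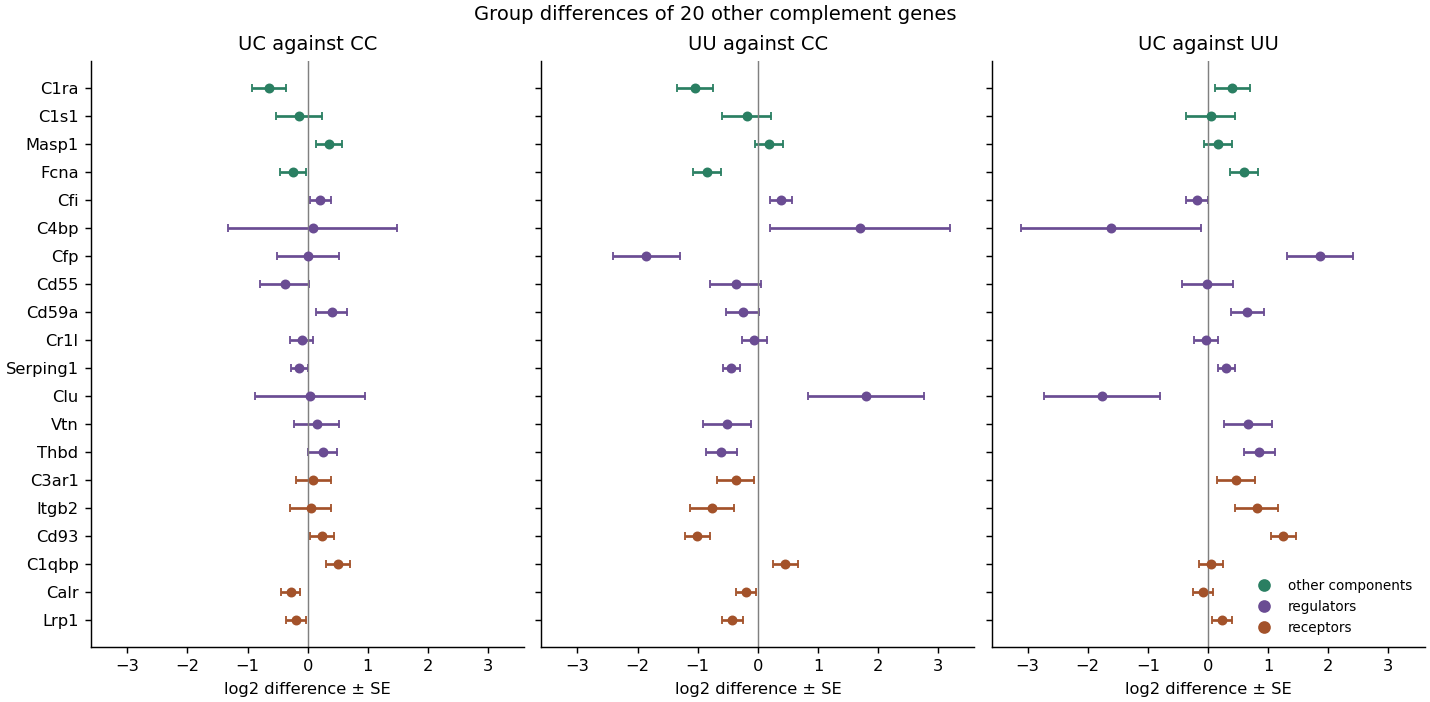
Log2 difference ± SE of the tested further components, regulators and receptors of complement in UC against CC, UU against CC and UC against UU. Cd93 in UC against UU (1.25) is the 1 value that passed the adjusted test, and Clu and C4bp carry wide errors in every comparison.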

How the data were processed

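Epididymal fat RNA of 14 mice was hybridised to 1-channel arrays. The deposited values are linear intensity signals. Per the submitters' processing notes the authors used GCOS 1.3 and MAS5, and every array has the same mean signal after trimming 2% at each end. The number of arrays limits the precision, with a median standard error of 0.20 for UC against CC and 0.22 for each comparison with UU.

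The group assignment tag of the labels gave the groups. The platform annotation gave 1 gene symbol for 20380 probe sets, several for 691 and none for 1555, 64 were control probe sets, and 20351 symbols were updated through Entrez identifiers. Each of 12393 genes was represented by its brightest probe set on average (4956 genes offered a choice). On the scale log2(signal + 32), genes among the dimmest 40% were dropped and 7436 tested. One limma 3.58.1 fit (R 4.3.3, empirical Bayes with a mean-variance trend, 11 residual degrees of freedom) held all 14 arrays and 3 two-sided contrasts. A second fit took 13575 probe sets singly. It alone holds the C4a and C4b probe set, since probe sets with several symbols stay out of the gene fit. The fit was tested on simulated arrays. Marker levels were compared by exact permutation, and correlations had 100000 resamples.

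The complement genes and all lists were chosen with earlier results of these data known. Named were all complement genes of the list, per further list and comparison the 3 of smallest p and the brightest, and for each complement gene the 3 genes of highest r. Of the 2 brightest members of a marker list, not all were named. Gpx5, Alb, Ttr, Lpl, Eif2s3y, Xist and C4bp, and dimmer probe sets of the further genes, were named after their values were seen. Alternatives changed the pseudocount, filter, scaling, probe set rule, variance model, array weights, replicate number as a block, threshold, groups fitted and arrays left out. The C4 probe set, the dimmest C1qb probe set and Cd93 were added to them after the values were seen. Figures were drawn with matplotlib 3.10.9.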

Additional observations from a re-analysis of the deposited data

Results flagged for a closer look

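Each complement probe set was examined for an array far from the rest of its group, over 24 groups of 4 or 5 arrays, and 3 arrays stood out, where chance gives about 1 group in 20. UC replicate 5 had the highest UC signal on the dimmest probe set of C1qb, 2716.3, against 1204 to 1461 in the other UC arrays. It is also the highest UC array for C1qa, C1qc and Cfb, and is one of the arrays of low Eif2s3y.

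UU replicate 3 had the lowest UU signal on the same probe set, 331.9, against 1167.8 to 1266.3 in the other UU arrays. The array has the highest 3'/5' ratio, 2.11, and the highest UU signal on the brightest probe set of C1qb, 3588.7. Whether RNA quality has a part in this was not tested.

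UU replicate 4 had the highest UU signal on the probe set of C4a and C4b, 2943.0, against 1761 to 1858.1 in the other UU arrays.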

How the results depend on the processing

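Over 567 values of single complement probe sets and genes under the alternatives, 563 kept their direction and their side of the threshold, 3 turned round and 1 newly passed. For part of the 563 the direction was fixed in advance. Leaving out an array of the third group, for example, changes the error of a difference and not its size. Those turned round were of UC against CC: C1qc ran from -0.44 to 0.076 (0.0067 without CC replicate 2 and 0.076 without UC replicate 3), and the C4a and C4b probe set from -0.48 to 0.10 over single arrays left out. C2 passed in UC against UU without UC replicate 3, so that the number of complement genes called ran from 0 to 1 over single arrays left out, and no other alternative called one. The adjusted p of C2 ran from 0.0851 to 0.289 in UU against CC and from 0.0373 to 0.318 in UC against UU. Cd93 in UC against CC was -0.0011 with the mean of probe sets.

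The number of all genes called moved more. UC against CC had 0 called genes in all 30 alternatives, beside 357 higher and 297 lower genes at an unadjusted limma p under 0.05. In UU against CC it was 0 at first, 6 at an adjusted p under 0.1, 1 with no filter, 3 with the dimmest 60% left out, 1 with quantile normalization, 13 with array weights, 1 without the 2 arrays with Xist signal (those of low Eif2s3y), 1 without the 4 arrays low in epididymal markers, and 0 to 2 over single arrays left out. In UC against UU it was 63 at first, 174 at an adjusted p under 0.1, 11 with no filter, 39 with the mean of probe sets, 3 without the 2 arrays, 1 without the 4 arrays, 0 without the 3 arrays of highest 3'/5' ratio, 7 with only the groups compared, and 0 to 108 over single arrays left out. The causes were not tested.

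With the replicate number as a block, UU against CC called 6 genes and UC against UU 95, none of them one of the 5 complement genes, though Cd93 passed in UU against CC (-1.03). The labels do not say whether the numbers pair the arrays. Deviations of same-numbered arrays correlated at -0.35 to 0.50, over 0.1 in 6 of 13 pairs, and 2 of 14 arrays correlated best with their own number. These correlations cannot decide on a pairing, because the arrays within a group also differ in epididymal markers.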
